A study of Mus musculus with 7 samples.

Results

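The 7 genes that encode the subunits of NMDA-type glutamate receptors (Grin1, Grin2a, Grin2b, Grin2c, Grin2d, Grin3a and Grin3b) were followed in the mouse cerebellum, chosen by symbol from the 55450 genes in each library, with their 39 annotated transcripts of 141767. Cerebella came from C57BL/6 pups at postnatal day 15 (P15), 3 of them wild type (WT) and 4 carrying 1 disrupted copy of L3mbtl3 (L3mbtl3 KO/+). L3mbtl3 encodes a malignant-brain-tumour-domain protein that reads methylated lysines. The labels give neither the deleted part of the gene nor the litters of the pups. Without the litters it is not known whether the libraries are independent. The p-values set the genotype difference against the spread between these samples. Poly(A) RNA was sequenced from whole cerebellum, a mixture of cell types. The question put to the data was whether the balance of Grin2b to Grin2a and Grin2c, and the subunit genes as a family, differed between the genotypes.

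NMDA receptors are glutamate-gated cation channels that pass calcium and open fully only when glutamate and a co-agonist, glycine or D-serine, are bound and depolarisation has expelled magnesium from the pore. Each channel contains the obligatory GluN1 subunit (Grin1), which binds the co-agonist, together with GluN2 subunits (Grin2a to Grin2d), which bind glutamate and set the channel's kinetics, or GluN3 subunits (Grin3a, Grin3b), which bind glycine. In cerebellar granule neurons, GluN2B is the subunit of immature cells, and it gives way to GluN2A and then GluN2C as the cells settle in the internal granule layer and receive mossy fibre synapses.

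The libraries held between 29248342 and 43761782 estimated counts. L3mbtl3 itself had 22.6, 26.8 and 23.2 CPM (counts scaled to the library size) in WT replicates 1 to 3 and 19.7, 17.4, 22.3 and 23 CPM in KO/+ replicates 1 to 4. The groups overlapped, because KO/+ replicate 4 lay above WT replicate 1, and the log2 fold change in edgeR's quasi-likelihood test was -0.23 (SE 0.12, Benjamini-Hochberg adjusted p = 0.957), so the RNA level does not separate the labels. WT replicate 3 stood apart in its summed brainstem markers, at 17.1 CPM against 2.3 to 4.06 in the others. Its midbrain markers reached 12.5 CPM against 1.89 to 5.17. Its cell cycle genes were the lowest at 446.9 CPM, but this was shared with KO/+ replicates 2 and 1, at 468.3 and 522.5 CPM. The rest had 927.4 to 1164 CPM. Of the brainstem markers, Hoxb2, Hoxb3, Hoxa5 and Hoxb5 had at most 10 counts in every library. Choroid plexus genes summed to 724.3 to 1430 CPM in WT replicate 2 and KO/+ replicates 1 to 3, and to 41.3 to 46.9 CPM in the rest. Mature granule neuron markers, which include the granule-specific GABA receptor gene Gabra6, summed to between 5611 and 8077 CPM in the 7 libraries.

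Grin1 was the most abundant member. Its locus lies on the minus strand of chromosome 2 (chr2:25291181-25319187, GRCm38, the build of every position given here), and 8 of its 14 annotated transcripts have a complete coding sequence. These 8 are the combinations of 3 choices: whether the extracellular N1 cassette is included, whether the cytoplasmic C1 cassette is included, and which of 2 last coding exons, C2 or C2', ends the protein. Their sequences are shown because these exons tell the coding sequences of the 8 transcripts apart. The transcripts differ outside these exons too. Grin1-203 has 4165 bases and Grin1-202 has 4127, although N1, with 63 bases, is the only one of the 3 choices that differs between them. N1 is a coding exon of 63 bases (chr2:25311343-25311405), given here with 15 bases of the neighbouring exons on each side in lower case. Capitals mark the cassette.
N1 included: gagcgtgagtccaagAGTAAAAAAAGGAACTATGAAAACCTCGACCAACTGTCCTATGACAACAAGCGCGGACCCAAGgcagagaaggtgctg
N1 skipped: gagcgtgagtccaaggcagagaaggtgctg

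The C1 cassette, a coding exon of 111 bases (chr2:25294438-25294548), encodes part of the intracellular tail known for an endoplasmic reticulum retention signal and for phosphorylation sites. The coding part of the last exon is either C2, with 114 bases (chr2:25292371-25292484), or C2', with 66 bases (chr2:25292063-25292128). C2' is known to end in a motif that binds PDZ-domain proteins. Capitals mark the alternative bases, and lower case marks the 15 bases before C1.
C1: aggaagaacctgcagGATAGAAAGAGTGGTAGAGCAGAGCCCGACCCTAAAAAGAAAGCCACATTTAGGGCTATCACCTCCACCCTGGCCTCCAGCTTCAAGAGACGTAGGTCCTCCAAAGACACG
C2: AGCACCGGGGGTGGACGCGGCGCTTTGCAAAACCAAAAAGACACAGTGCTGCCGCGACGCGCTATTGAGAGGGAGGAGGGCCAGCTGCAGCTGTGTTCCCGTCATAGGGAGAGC
C2': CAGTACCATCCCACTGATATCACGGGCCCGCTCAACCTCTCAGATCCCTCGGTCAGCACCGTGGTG

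The subunit genes spanned a wide range of levels in TPM, the unit that corrects for transcript length. Median TPM over the 7 libraries was 147.9 for Grin1, 70.7 for Grin2c, 12.7 for Grin3a, 7.96 for Grin2d, 5.28 for Grin2a, 4.71 for Grin2b and 0.82 for Grin3b. The ranges of neighbours in this order did not overlap for Grin1 and Grin2c, for Grin2c and Grin3a, for Grin3a and Grin2d, or for Grin2b and Grin3b. Grin2d and Grin2a overlapped in range, although Grin2d was the higher of the pair in 7 of 7 libraries. Grin2a and Grin2b overlapped too, with Grin2a higher in 5 of 7 libraries, so their order is not settled by these samples. At P15 the GluN2 message was thus mainly Grin2c, at 74.2% to 86.5% of the summed TPM of Grin2a to Grin2d, while Grin2b made up 2.45% to 7.58%, Grin2a 5.17% to 8.05% and Grin2d 5.66% to 12.2%. The order and shares depend on the lengths used, with medians of 22989 bases for Grin2b, 14129 for Grin2a and 4430 for Grin2c. In CPM, not scaled by length, the medians were 203.2 for Grin2c, 66.3 for Grin2b, 49.7 for Grin2a and 24.8 for Grin2d.

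**Figure D1:**
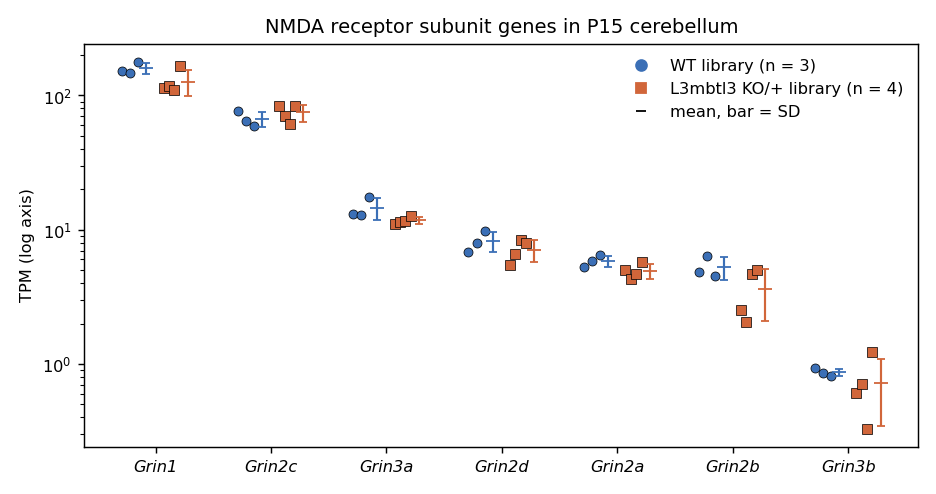
TPM of each subunit gene on a log axis, with 1 point per library (circles, 3 WT; squares, 4 KO/+) and the group mean with its SD as a bar. Grin1 (109.5 to 176.6 TPM) and Grin2c (59.3 to 83.5 TPM) sit above the other 5 genes in every library, and in Grin2b 2 KO/+ libraries lie at 2.05 and 2.54 TPM.

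None of the 7 genes passed the genotype test. In edgeR's quasi-likelihood fit over 16813 genes, 0 members had a Benjamini-Hochberg adjusted p under 0.05, and the background was 0% of all genes. At an unadjusted p under 0.05 the count was also 0 of 7 members, beside 3.15% of all genes, and DESeq2 and limma-voom called 0 members after adjustment. The unadjusted count was not stable: without KO/+ replicate 4 it was 3 of 7 (Grin1, Grin2a and Grin2b) beside 9.32% of all genes, and when the fit included the cell cycle score it was 3 of 7 (Grin2a, Grin2b and Grin3a) beside 6.29%, with 0 members past the adjusted threshold in either fit. In direction, 6 members had a negative log2 fold change in KO/+ and 1, Grin2c, a positive one. The members' median was -0.21, beside -0.0047 over all genes, of which 8603 were negative and 8210 positive. The members' adjusted p ran from 0.957 to 0.959 in edgeR, and the common biological coefficient of variation over all genes was 18.7%.

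Grin1, which encodes the subunit no NMDA receptor can do without, had 153, 147.9 and 176.6 TPM in WT replicates 1 to 3 and 113.4, 117, 109.5 and 166.6 TPM in KO/+ replicates 1 to 4. KO/+ replicates 1 to 3 lay below every WT library, and KO/+ replicate 4 lay within the WT range. In counts scaled to library size, WT averaged 376.8 ± 41.9 CPM (SD, n = 3) and KO/+ 308.7 ± 55.5 CPM (SD, n = 4). The log2 fold change in edgeR was -0.29 (SE 0.15, 95% interval -0.63 to 0.05, adjusted p = 0.957). It ran from -0.43 without KO/+ replicate 4 to -0.20 without WT replicate 3, whose Grin1 level was the highest. Grin1 overlaps the antisense gene Grin1os, which held at most 2 counts in any library.

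Of the GluN2 genes, Grin2b (chr6:135713233-136173511, minus strand), the gene of the immature-type subunit, varied most between libraries. It stood at 4.84, 6.42 and 4.52 TPM in WT replicates 1 to 3 and at 2.54, 2.05, 4.71 and 5.05 TPM in KO/+ replicates 1 to 4. KO/+ replicates 1 and 2 were the lowest of the 7, while KO/+ replicates 3 and 4 lay inside the WT range. On the CPM scale WT averaged 78.5 ± 16.4 (SD, n = 3) and KO/+ 53.4 ± 21.6 (SD, n = 4). This made a log2 fold change of -0.56 (SE 0.30, 95% interval -1.24 to 0.13, adjusted p = 0.957 in edgeR), and leaving out 1 library at a time gave values from -0.80 to -0.38. These values rest on 1233 to 3582 estimated counts per library.

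The gene TPM of Grin2b also depends on how reads were shared between its transcripts. Grin2b-201, the long coding transcript of 24060 bases, carried 81.5% to 100% of the gene's TPM. Grin2b-204, a partial model of 703 bases with at most 4 estimated counts, took 16.5% of the TPM in KO/+ replicate 1 and shortened the gene's average length there to 19736 bases against 22171 to 24060 in the others. Over complete coding transcripts only, an alternative added after the data were seen, Grin2b had 4.67, 6.42 and 4.2 TPM in WT and 2.12, 2.05, 4.38 and 5.05 TPM in KO/+. The same 2 KO/+ libraries were lowest on this scale.

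Grin2a (chr16:9567898-9995560, minus strand), which encodes the subunit of mature fast-decaying receptors, had 5.28, 5.8 and 6.44 TPM in WT and 4.98, 4.32, 4.68 and 5.74 TPM in KO/+. In TPM, KO/+ replicate 4 lay within the WT range and the other KO/+ libraries below it. In CPM, KO/+ replicate 1 lay within the WT range as well, at 49.7 against 48.6 in WT replicate 1. Mean CPM came to 52.9 ± 5.15 for the 3 WT libraries and 46.1 ± 4.75 for the 4 KO/+ libraries (SD). Its log2 fold change was -0.20 (SE 0.10, 95% interval -0.44 to 0.04, adjusted p = 0.957 in edgeR), and it was -0.12 without WT replicate 3. A single transcript of 14634 bases, Grin2a-206, carried 93.6% to 97.7% of its TPM.

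Grin2c (chr11:115249169-115267243, minus strand), the gene of the low-conductance subunit of mature granule neurons, was the member with a positive difference. WT libraries had 76.5, 64.5 and 59.3 TPM, and KO/+ libraries had 83.4, 70.7, 61.2 and 83.5 TPM. KO/+ replicates 1 and 4 lay above every WT library and the other KO/+ libraries within the WT range. WT averaged 178.6 ± 24.2 CPM (SD, n = 3) and KO/+ 207.6 ± 35.6 CPM (SD, n = 4), which made a log2 fold change of 0.22 (SE 0.15, 95% interval -0.13 to 0.57, adjusted p = 0.957 in edgeR). It was 0.13 without KO/+ replicate 1. Its transcripts Grin2c-201 and Grin2c-202 divided the TPM in near-constant parts, with 73.5% to 78% on Grin2c-201.

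Grin2d (chr7:45831883-45878378, minus strand), which encodes a slowly deactivating subunit found outside granule neurons, had 6.88, 8 and 9.72 TPM in WT and 5.46, 6.6, 8.33 and 7.96 TPM in KO/+. WT replicate 3 was the highest and KO/+ replicate 1 the lowest, with the groups overlapping between them. The log2 fold change of -0.21 (SE 0.14, adjusted p = 0.957 in edgeR) was -0.05 without WT replicate 3, -0.13 without KO/+ replicate 1 and -0.31 without WT replicate 1. Grin2d overlaps Kdelr1 in the annotation, and whether the counting used strand is not given in the sources used here.

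Grin3a (chr4:49661611-49845744, minus strand), the gene of a glycine-binding subunit that lowers calcium entry, was the only member whose groups did not overlap. WT libraries had 13.1, 12.8 and 17.5 TPM and KO/+ libraries 11, 11.5, 11.7 and 12.7 TPM. The gap was small, 12.7 TPM in KO/+ replicate 4 against 12.8 TPM in WT replicate 2. In CPM, all KO/+ libraries lay below all WT libraries for 1 of 7 members and 1.8% of genes tested, and above them for 0 members and 2.16% of genes. The genotype difference was -0.26 on the log2 scale (SE 0.12, 95% interval -0.53 to 0.01, adjusted p = 0.957 in edgeR), and without WT replicate 3 it was -0.10. WT replicate 3, the library with raised brainstem and midbrain markers, was also the highest for Grin1, Grin2a and Grin2d, and the part of those markers in the levels was not tested.

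Grin3b (chr10:79970715-79977190, plus strand), which encodes a glycine-binding subunit known best from motor neurons, was near the floor of detection with 44, 50 and 60 estimated counts in WT and 42, 40, 21 and 53 in KO/+. In TPM it had 0.93, 0.85 and 0.82 in WT and 0.61, 0.71, 0.33 and 1.23 in KO/+. KO/+ held both the lowest and the highest library. Its log2 fold change of -0.17 (SE 0.33, adjusted p = 0.959 in edgeR) ran from -0.46 without KO/+ replicate 4 to 0.03 without KO/+ replicate 3, and was -0.26 without WT replicate 1, so its direction rests on single libraries. The gene overlaps Tmem259.

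**Figure D2:**
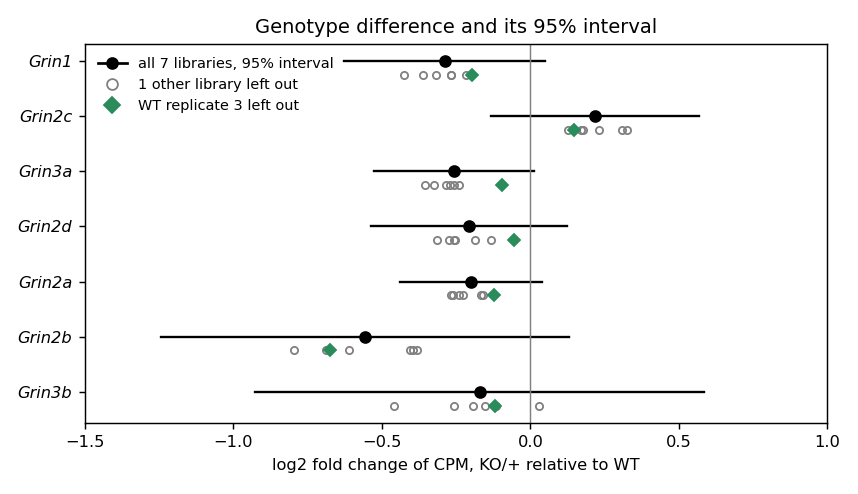
Log2 fold change of CPM in KO/+ relative to WT for each subunit gene from edgeR, with its 95% interval (black), and the same value with 1 library left out (open circles, or green diamonds for WT replicate 3). Every interval holds 0, and the values for Grin2d and Grin3a without WT replicate 3 lie at -0.05 and -0.10.

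The balance of the immature-type to the mature-type subunits was then compared as the ratio of TPM within each library. Grin2b to the sum of Grin2a and Grin2c came to 0.0592, 0.0913 and 0.0687 in WT replicates 1 to 3, and to 0.0287, 0.0273, 0.0715 and 0.0566 in KO/+ replicates 1 to 4. KO/+ replicates 1 and 2 had the lowest ratios and KO/+ replicate 3 lay above WT replicates 1 and 3, so the groups overlapped. On the log2 scale WT averaged -3.80 ± 0.32 (SD, n = 3) and KO/+ -4.57 ± 0.70 (SD, n = 4), a difference of -0.77. By exact permutation, two-sided, p was 0.171 (0.257 adjusted over 3 ratios). The two-sided p was taken by doubling the smaller tail. In this form the smallest p for 3 against 4 libraries is 0.0571, so 0.05 could not be reached. With the groups overlapping, the test neither shows a difference in balance nor shows that there is none.

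The ratio was also taken against each partner alone. Grin2b to Grin2a stood at 0.917, 1.11 and 0.702 in the WT libraries, and at 0.51, 0.474, 1.01 and 0.88 in the KO/+ libraries, with a log2 difference of -0.39 (exact permutation p = 0.343, adjusted 0.343). WT replicate 3 had a lower ratio than KO/+ replicates 3 and 4. That difference rests on few libraries, since it came to -0.24 without WT replicate 2, to -0.25 with KO/+ replicate 1 left out and to -0.22 with KO/+ replicate 2 left out. For Grin2b to Grin2c the WT ratios came to 0.0633, 0.0995 and 0.0762 and the KO/+ ratios to 0.0305, 0.029, 0.0769 and 0.0605, a log2 difference of -0.80 (exact permutation p = 0.171, adjusted 0.257). KO/+ replicates 1 and 2 again lay below the other 5 libraries.

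**Figure D3:**
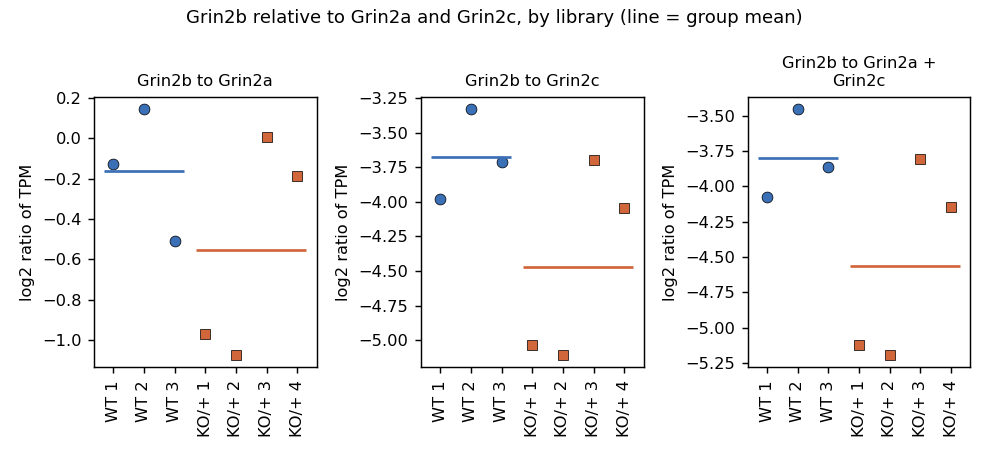
Log2 ratio of TPM of Grin2b to Grin2a, to Grin2c and to their sum in each library (circles WT, squares KO/+; lines are group means). In each panel KO/+ replicates 1 and 2 lie below the other 5 libraries and KO/+ replicates 3 and 4 lie within or near the WT values, with group means for the summed ratio of -3.80 and -4.57.

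The libraries with the low Grin2b balance also differed in granule neuron markers. Mature granule neuron genes summed to 8077 and 7484 CPM in KO/+ replicates 1 and 2, against 5611 to 6245 CPM in the other 5 libraries. The list did not move as one: 9 of 12 genes had a positive and 3 a negative log2 fold change, and Fat2, one of the negative ones, had 425.1 and 388.1 CPM in those 2 libraries against 395.8 to 693 in the others. Differentiating granule neuron genes summed to 1502 and 1329 CPM in the same 2 libraries and to 1491 CPM in WT replicate 3, against 1819 to 2077 CPM in the other 4. With the mature granule neuron score as a covariate in edgeR, the log2 fold change was -0.26 for Grin2b, 0.0069 for Grin2c and -0.06 for Grin2d, while Grin1 (-0.33), Grin2a (-0.25) and Grin3a (-0.27) stayed near their values without it, and Grin3b moved from -0.17 to -0.37. With the cell cycle score instead, Grin2b was at -0.48 and Grin2c at 0.22. In direction, cell cycle genes were negative in 20 of 20 (median -0.28) and granule neuron progenitor markers in 8 of 8 (-0.17). Differentiating granule neuron markers were negative in 8 of 8 (-0.16) and choroid plexus markers positive in 6 of 6 (0.78). The groups overlapped in the summed CPM of each of these lists, and 8603 of 16813 genes tested were negative. Oligodendrocyte precursor markers were negative in 9 of 9 (median -0.27). Red blood cell genes were positive in 4 of 4, summing to 781.8 to 1204 CPM in KO/+ replicates 1 to 3 and 414.7 to 507.6 CPM in the other 4 libraries. Apart from the fit with the cell cycle score, the part of these lists in the subunit levels was not tested. In whole cerebellum, fewer cells of a type and less RNA per cell cannot be told apart.

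A pair of composite values separated the groups, while the other subunit shares and the Grin2b ratios overlapped. Both were picked from all the shares and ratios computed, after the values were seen, so they carry no test. For single genes in CPM, the groups did not overlap for 1.8% (KO/+ lower) and 2.16% (KO/+ higher) of genes tested. No such rate was computed for composite values. Grin1 and Grin2c enter both of them, so they are not separate observations. Grin1 relative to the summed TPM of Grin2a to Grin2d came to 1.64, 1.75 and 2.21 in the WT libraries, and to 1.18, 1.4, 1.39 and 1.63 in the KO/+ libraries. The groups did not overlap, but KO/+ replicate 4 and WT replicate 1 were nearly equal. Grin2c as a share of the TPM of all 7 genes came to 29.4%, 26.2% and 21.6% for WT, and to 37.7%, 33.2%, 30.5% and 29.5% for KO/+. Here too the closest values, in WT replicate 1 and KO/+ replicate 4, were nearly equal.

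Genes whose profile over the 7 libraries was most like that of a GluN2 gene were found by the root-mean-square (RMS) difference of log2 CPM centred on its mean, among 10518 other genes that averaged 10 CPM or more. The nearest to Grin2b was Ncan, which encodes the extracellular matrix proteoglycan neurocan, at an RMS difference of 0.12, where the Grin2b profile itself has an RMS of 0.52. Ncan had 129.9, 136.5 and 114.5 CPM in WT and 55.3, 57.4, 96.9 and 125.2 CPM in KO/+. Like Grin2b it was lowest in KO/+ replicates 1 and 2 and within the WT range in KO/+ replicate 4. In KO/+ replicate 3 Ncan lay below every WT library, while Grin2b, at 66.3 CPM, lay within the WT range. Ncan was picked for its likeness to Grin2b, so the shared low libraries are not a separate observation. Pxdn, an extracellular matrix peroxidase gene (0.16), Tanc2, a postsynaptic scaffold gene (0.16), and Nav1, a neuronal microtubule-binding protein gene (0.17), followed.

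For Grin2c the nearest profiles were Rgl3 (0.04), Kcnk3 (0.05), Shisa8 (0.06) and Coro1a (0.06), against an RMS of 0.22 in the Grin2c profile. Kcnk3 encodes a potassium leak channel and Shisa8 a protein associated with AMPA receptors. For Grin2a they were Slc7a4, Ero1lb, Rtn3 and Aak1, all at 0.06, against 0.16 in Grin2a. Grin2a moved little, so a small RMS difference says less there than for Grin2b.

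**Figure D4:**
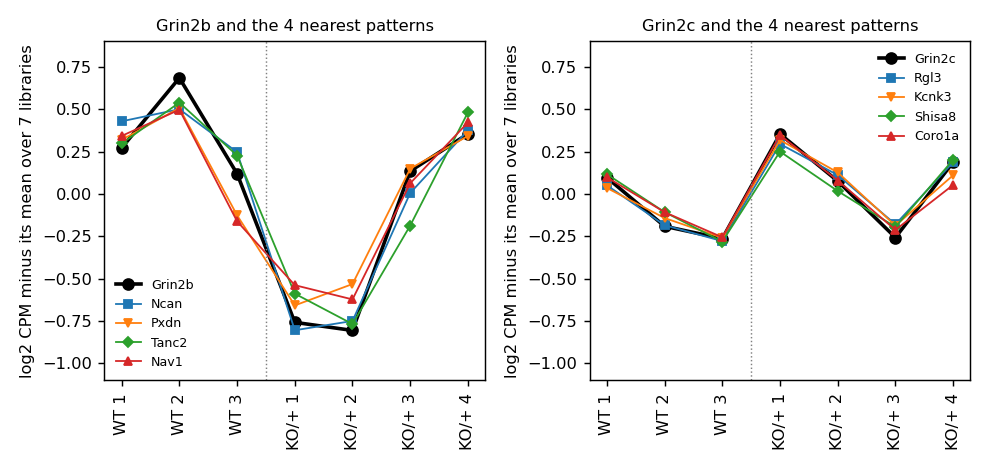
Log2 CPM minus its mean over the 7 libraries for Grin2b (left) and Grin2c (right) with the 4 nearest genes each; lines join the libraries only to guide the eye. Grin2b and its neighbours are lowest in KO/+ replicates 1 and 2, and Grin2c and its neighbours are highest in KO/+ replicate 1.

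Transcripts were tested in the same way over 44375 transcripts. Of the 39 member transcripts 21 passed the filter on low counts, 4 with a positive and 17 with a negative log2 fold change, and 20 of the 39 stayed under 1 TPM in every library. At a Benjamini-Hochberg adjusted p under 0.05 in edgeR there were 0 calls among members and 0% among all transcripts, and at an unadjusted p under 0.05 there were 0 among members and 2.71% among all. The test does not model RSEM's uncertainty in assigning reads, and the size of that uncertainty was not measured. Grin1-203 had 0.01, 0.04 and 22.2 TPM in the WT libraries and 14.8, 10.1, 0.15 and 0 TPM in KO/+. Grin1 as a whole did not have this spread, and its cause was not tested.

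Cassette shares were summed over the transcripts that hold each exon. N1 was included in 27.3%, 23.4% and 34.1% of the complete coding Grin1 TPM in WT and in 37.9%, 33.4%, 28.1% and 26.4% in KO/+. The groups overlapped throughout, with means of 28.3% ± 5.41 (SD, n = 3) and 31.4% ± 5.2 (SD, n = 4) and a difference of 3.19 percentage points (exact permutation p = 0.457, 0.914 adjusted over 2 cassettes). That difference ran from 0.77 without WT replicate 2 to 6.11 without WT replicate 3, and came to 1.05 with KO/+ replicate 1 left out and to 4.86 with KO/+ replicate 4 left out.

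C1 was included in 39.9%, 39.6% and 21.6% in WT and in 31.2%, 26%, 35% and 40.1% in KO/+. WT held the lowest library, replicate 3, while its other libraries lay near the top. The difference of -0.61 percentage points (exact permutation p = 0.971, adjusted 0.971) had no stable sign, since leaving out WT replicates 1, 2 or 3 gave 2.51, 2.34 or -6.67, and leaving out KO/+ replicates 1, 2, 3 or 4 gave 0.015, 1.74, -1.26 or -2.93. The C2' end made up 48.8%, 48.7% and 58% in WT and 50.7%, 55%, 51.3% and 49% in KO/+, given without a test because it was examined after the annotation had been seen.

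Libraries of both genotypes shared their estimated exon use. The 3 libraries with the lowest cell cycle scores (WT replicate 3 at 3.97, KO/+ replicate 2 at 4.04 and KO/+ replicate 1 at 4.26 mean log2 CPM) had the highest N1 shares, 33.4% to 37.9%, and the lowest C1 shares, 21.6% to 31.2%. The other 4 libraries, with scores from 5.09 to 5.41, had N1 at 23.4% to 28.1% and C1 at 35% to 40.1%. The libraries fall into 2 separate ranges of the score, so no correlation is given. The higher N1 shares rest mainly on 1 transcript with N1, Grin1-203. It had 22.2 TPM in WT replicate 3, 14.8 and 10.1 TPM in KO/+ replicates 1 and 2, and 0 to 0.15 TPM in the other 4 libraries. Grin1-204, which also holds N1, had 27.4, 23.8 and 20.4 TPM in those 3 libraries and 27 to 41.7 TPM in the other 4. The N1 pattern thus depends on the reads assigned to Grin1-203. It was noticed in these values and was not tested.

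**Figure D5:**
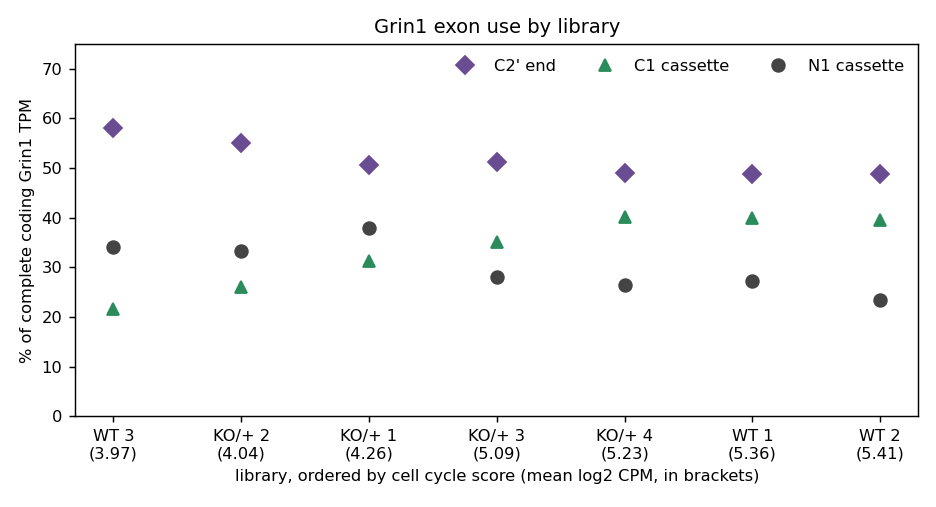
Percent of the complete coding Grin1 TPM that holds N1 (circles), C1 (triangles) or the C2' end (diamonds) in each library, ordered from left to right by the cell cycle score printed under its name. The 3 libraries on the left, 1 WT and 2 KO/+, have N1 above 33% and C1 below 32%, and the 4 on the right have N1 below 29% and C1 at 35% or more. The N1 transcript Grin1-203 had 10.1 to 22.2 TPM in the 3 on the left and 0 to 0.15 TPM in the 4 on the right.

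Other genes around the receptor likewise gave 0 calls after adjustment in edgeR. The counts of each list below stand beside the same values over all 16813 genes: 3.15% at an unadjusted p under 0.05, 8603 negative, a median of -0.0047, and no overlap between the groups for 1.8% (KO/+ lower) and 2.16% (KO/+ higher). Among AMPA receptor subunit and auxiliary genes, 5 of 15 had a positive and 10 a negative log2 fold change (median -0.05), and 1 passed an unadjusted p of 0.05: Gsg1l, an auxiliary subunit gene, at -0.43 (SE 0.14, edgeR adjusted p = 0.957). It had 43.4, 41.9 and 35.9 CPM in WT and 25, 27.1, 30.6 and 37.5 CPM in KO/+, so the groups overlapped at KO/+ replicate 4. Shisa9 (-0.36) and Cacng3 (-0.62) came next, both highest in WT replicate 3, at 44.6 and 9.79 CPM. Kainate and delta receptor genes were negative in 9 of 10 (median -0.11), led by Neto1 (-0.68), Grik1 (-0.26) and Grid1 (-0.36), and all 3 were highest in WT replicate 3. None of the kainate and delta genes reached an unadjusted p of 0.05 in edgeR.

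Metabotropic receptor and Homer genes were mixed, with 4 of 10 tested positive (median -0.03). Grm5, whose receptor is coupled to NMDA receptors through scaffolds, had 52.8, 50.3 and 62.8 CPM in WT and 33.4, 32.8, 40.5 and 51.9 CPM in KO/+, with KO/+ replicate 4 inside the WT range (log2 fold change -0.48, SE 0.17, edgeR adjusted p = 0.957). Homer1, which encodes a linker between Grm5 and the scaffold, had 43.2, 46.9 and 45.9 CPM in WT and 54.9, 52.7, 55.3 and 47.1 CPM in KO/+. All its KO/+ libraries lay above all WT libraries, which held for 2.16% of all genes, at 0.21 (SE 0.08, edgeR adjusted p = 0.957). Grm7 followed at -0.40.

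Scaffold and trafficking genes, which anchor the receptor at the synapse, split evenly, 9 of 17 positive (median 0.01). Their 3 smallest p-values belonged to Actn2 (-0.37), Lin7c (0.21) and Lin7a (0.30), none under 0.05 unadjusted. Actn2, an actin-binding partner of GluN1 and GluN2B, was low everywhere, from 0.82 to 1.17 CPM, with all KO/+ libraries below all WT libraries. Signalling genes downstream of the channel were positive in 9 of 21 (median -0.03), and 3 of 21 passed an unadjusted p of 0.05, all negative, beside 3.15% of all genes. Rasgrf1 and Rasgrf2, exchange factors for Ras, were far highest in WT replicate 3: Rasgrf1 had 308.7 CPM there and 60.5 to 75 CPM elsewhere, and Rasgrf2 35.9 CPM against 1.16 to 4.45. Dapk1, a kinase known to bind GluN2B, was not, with 36.3, 37.2 and 34 CPM in the WT libraries and 25.1, 25.6, 33.2 and 32.6 CPM in the KO/+ ones (log2 fold change -0.30, SE 0.12, edgeR adjusted p = 0.957).

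Genes that supply co-agonist and glutamate or clear them were negative in 10 of 15 (median -0.09), and 2 of 15 were at an unadjusted p under 0.05, beside 3.15% of all genes. Slc17a6, a vesicular glutamate transporter gene, was highest in WT replicate 3 (169.6 CPM against 72.5 to 99.6 in the others; log2 fold change -0.53). Slc1a1, a neuronal glutamate transporter gene, had 38.5, 37.5 and 55.9 CPM in WT and 32.5, 34.1, 36.5 and 37 CPM in KO/+, with no overlap, as for 1.8% of all genes (-0.33, edgeR adjusted p = 0.957). Slc6a9, the glycine transporter gene, was at -0.35. These lists, too, hold genes that were highest in WT replicate 3.

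Candidate regulators of the subunit genes were negative in 16 of 21 (median -0.05), and 2 of 21 were at an unadjusted p under 0.05, beside 3.15% of all genes. They were a ligand and its receptor: Nrg1, whose product neuregulin promotes Grin2c expression in granule neurons, and Erbb4, a neuregulin receptor gene. Nrg1 had 9.01, 10.1 and 10.7 CPM in WT and 5.67, 6.61, 8.19 and 8.52 CPM in KO/+, without overlap, as for 1.8% of all genes (-0.46, SE 0.16, edgeR adjusted p = 0.957). Erbb4 had 63.7, 67.9 and 53.7 CPM in WT and 45.1, 40.3, 55 and 57.1 CPM in KO/+, with KO/+ replicates 3 and 4 inside the WT range (-0.32, SE 0.14, edgeR adjusted p = 0.957). For both genes KO/+ replicates 1 and 2 were lowest, the libraries that were also lowest for Grin2b. Mef2c, an activity-dependent transcription factor gene, followed at -0.33 and was highest in WT replicate 3, at 40.4 CPM.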

How the data were processed

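Per the labels' protocols, poly(A) RNA of integrity number 7 or more was made into directional libraries. Per the submitters' processing notes, the tools were bcl2fastq, Trimmomatic 0.39, STAR 2.5.2a and RSEM 1.3.1 with mm10/GRCm38, and the strand setting is not given there. Gene and transcript files as deposited hold the authors' RSEM expected counts, TPM and FPKM. Other deposited tables were not used here. Expected counts were rounded and tested with edgeR 4.0.16 (R 4.3.3; filterByExpr, TMM, quasi-likelihood F test, Benjamini-Hochberg over all features tested, threshold 0.05), checked on simulated data. CPM are the counts scaled with TMM factors. Ratios and cassette shares used TPM and exact permutation tests (SciPy 1.17.1); FPKM served 1 alternative. Alternatives used DESeq2 1.42.0, limma 3.58.1, other scalings, filters, covariates and each library left out. All 55450 gene identifiers matched GENCODE M21 (GRCm38), the source of positions and sequences. Named genes are the 7 members, L3mbtl3, of each pathway list the 3 genes with the smallest edgeR p, and the 4 nearest profiles. Members and lists were chosen with earlier results of these data known. No 2 libraries agreed within sampling noise (lowest chi-square per degree of freedom 10). Library totals of 29248342 to 43761782 counts gave a median standard error of 0.14 (log2).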

Additional observations from a re-analysis of the deposited data

Results flagged for a closer look

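Of the 19 groups of 4 libraries examined for a library far from the rest of its group, 1 stood out: Grin1 in KO/+ replicate 4, at 166.6 TPM where the other 3 KO/+ libraries had 109.5 to 117 TPM. Its gap to the nearest library took 0.868 of the group's range, above the 95% critical value of Dixon's test. Chance alone picks out about 1 in 20 such groups, and the same library did not stand out in Grin1 CPM, where it had 386.7 against 255.4 to 297.3.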

How the results depend on the processing

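All 20 alternatives for the genes and all 14 for the transcripts gave 0 members past the adjusted threshold, among them the looser threshold of 0.1; the lowest adjusted p of any member under any alternative was 0.504 (Grin1). Leaving out 1 library at a time moved the log2 fold change of Grin1 from -0.43 to -0.20, Grin2a from -0.27 to -0.12, Grin2b from -0.80 to -0.38, Grin2c from 0.13 to 0.33, Grin2d from -0.31 to -0.05, Grin3a from -0.36 to -0.10, Grin3b from -0.46 to 0.028 and L3mbtl3 from -0.30 to -0.16. The log2 ratios moved from -0.58 to -0.22 (Grin2b to Grin2a), -1.06 to -0.59 (to Grin2c) and -1.02 to -0.56 (to their sum), the N1 difference from 0.77 to 6.11 points and the C1 difference from -6.67 to 2.51, turning positive also without WT replicate 2 (2.34), KO/+ replicate 1 (0.015) and KO/+ replicate 2 (1.74). Unscaled by length, the summed ratio differed by -0.75 (exact permutation p = 0.229). Transcript shares depend on RSEM's assignment of reads, which no file bounds; the cause of these moves was not tested.

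Replicate numbers are shared by the groups. Deviations from the group mean over 10519 genes correlated at 0.32, -0.18 and -0.17 in same-numbered libraries, and at -0.69 to 0.59 in differently numbered ones. Deviations within a group sum to 0, so these values cannot tell whether the numbers mark litters or batches. The main fit did not pair the libraries. With the replicate block, the log2 fold changes were -0.41 for Grin1, -0.25 for Grin2a, -0.84 for Grin2b (edgeR adjusted p = 0.733), 0.18 for Grin2c, -0.24 for Grin2d, -0.26 for Grin3a, -0.48 for Grin3b and -0.29 for L3mbtl3, and 0 members were called; at an unadjusted p under 0.05 the block gave 3 of 7 (Grin1, Grin2b and Grin2d) beside 6.12% of all genes. KO/+ replicate 4 has no same-numbered WT library. For the ratios and cassette shares, differences within numbers leave it out and equal those found without that library. The edgeR fold changes of the block did not equal them, at -0.84 for Grin2b with the block and -0.80 without KO/+ replicate 4. The 3 ratios differed by -0.52, -0.94 and -0.91 within numbers (exact permutation p = 0.5 each), N1 by 4.86 points and C1 by -2.93. With 3 same-numbered differences the exact test cannot reach 0.05.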
